A study of Mus musculus with 16 samples.

Results

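Deletion of Vhl in the tubule of glycerol-injured mouse kidney was described across 19938 genes, from the 5 arrays titled VHL-KO/AKI and the 5 titled AKI. These are 10 of the 16 arrays of the series, chosen by title alone, and each array holds 1 labelled biological replicate. All mice were of a doxycycline-inducible line for the removal of Vhl from renal tubule cells, although the genotype label reads wt for mice that had no doxycycline. AKI mice (n = 5) were injected in a hind limb muscle with glycerol (50%), at 0.05 ml for each 10 g, and had no doxycycline. VHL-KO/AKI mice (n = 5) received the same glycerol and, 4 days before they were killed, doxycycline at 0.1 mg for each 10 g. Both groups went without drinking water from 20 h before to 24 h after the glycerol. Control mice (n = 3) were untreated and VHL-KO mice (n = 3) had doxycycline only, and these uninjured groups serve here for comparison. Mice of both sexes were used, and the sources used here do not give ages. No group received doxycycline without the deletion, so the drug and the deletion cannot be told apart. The RNA came from pieces of whole kidney, in which cells outside the tubule keep Vhl, and the design cites a Pax8-rtTA driver line with deletion in liver as well as kidney.

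The von Hippel-Lindau protein is the part of a ubiquitin ligase that recognises hypoxia-inducible factors (HIF). In oxygenated cells, prolyl hydroxylases mark the HIF alpha subunits, the von Hippel-Lindau protein binds the marked form, and the subunit is destroyed. Without the protein HIF accumulates and switches on genes of glycolysis, oxygen supply and removal of mitochondria, even where oxygen is plentiful. Glycerol in muscle breaks muscle fibres down, and the released myoglobin and haem damage the tubule, above all the proximal tubule, which normally burns fatty acids and makes glucose.

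All values below are log2 levels from the deposited table, a difference is VHL-KO/AKI minus AKI on that scale, and values of 5 arrays are given for replicates 1 to 5. One array stood apart. AKI 4 correlated with the rest of its group at a mean of 0.9729, and the other AKI arrays did so at 0.9875 to 0.9885. On the first principal component of the 10 injured arrays (43.2% of the variance) AKI 4 lay at 29.29, whereas the other AKI arrays lay between -27.71 and -18.95 and the VHL-KO/AKI arrays between -7.90 and 28.59. The VHL-KO/AKI array nearest to the AKI arrays was VHL-KO/AKI 5. AKI 4 carried less of the tubular injury signal (Havcr1, kidney injury molecule 1, at 9.30 against 12.23 to 13.13 in the other AKI arrays). It also had Epo, the gene of the hormone erythropoietin, at 9.35, where the highest of the other 15 arrays was at 4.65. Results are therefore given with and without AKI 4 where it moves them. The kidney genes Umod (12.70 to 13.27) and Slc34a1 (12.35 to 13.30) were high on all 10 injured arrays, and Xist was low on all 10 (4.16 to 5.08), which gives no sign of mixed sexes between the compared groups.

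**Figure D1:**
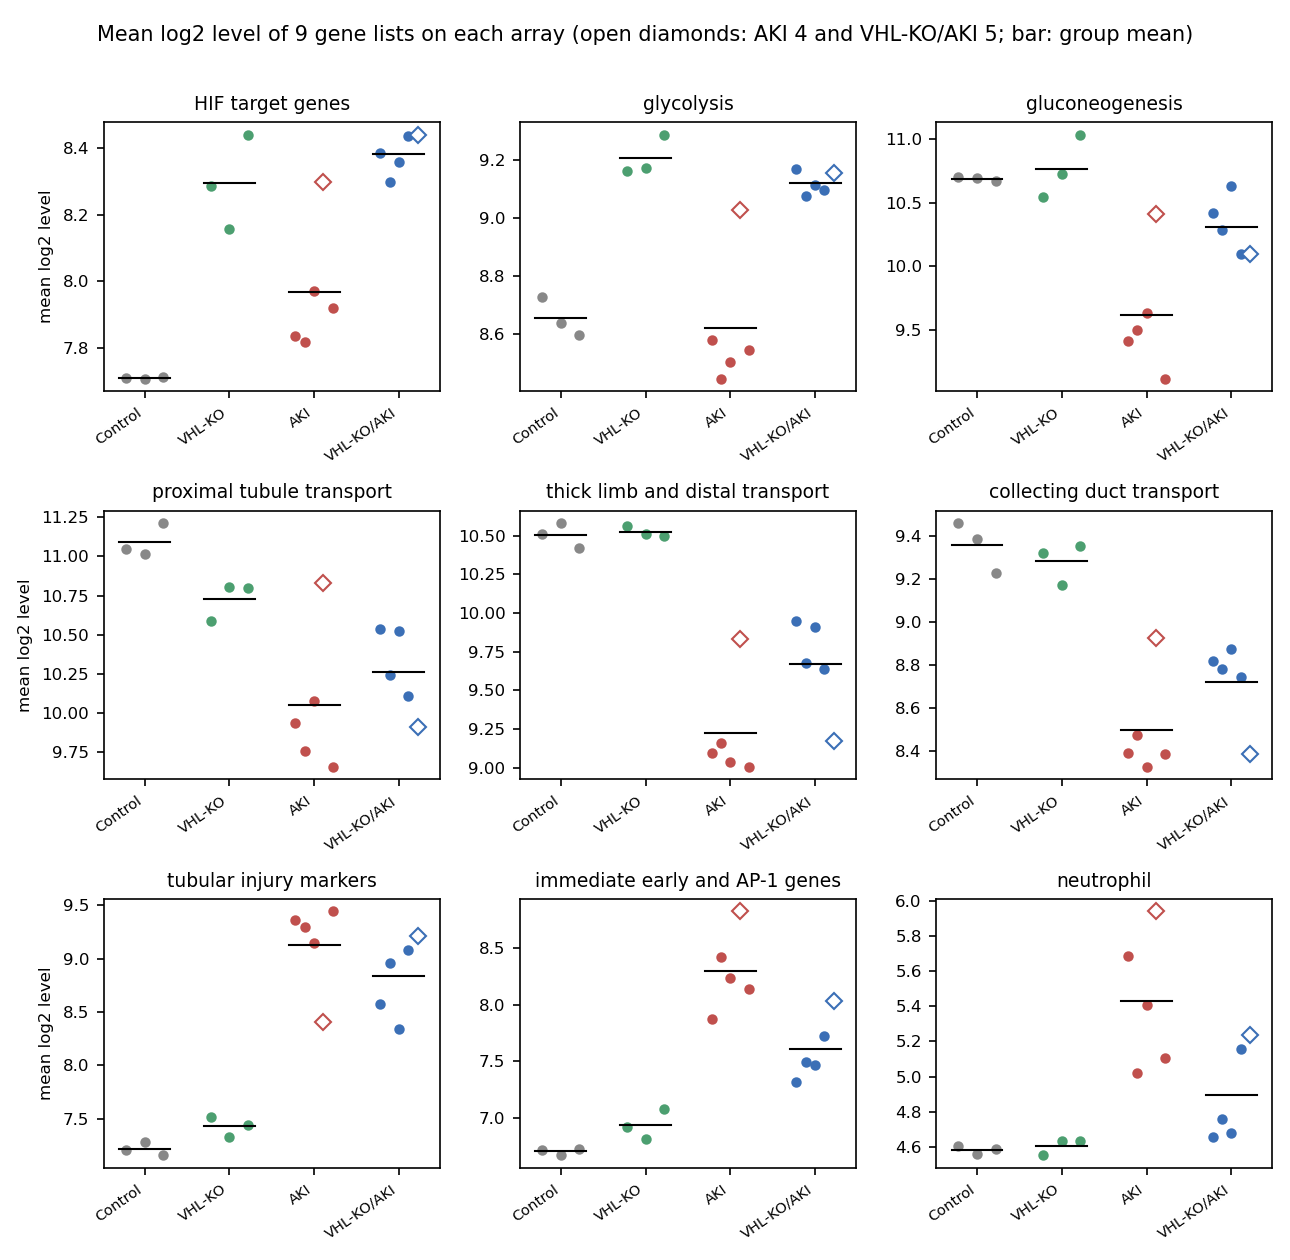
Mean log2 level over the measured members of 9 gene lists on each of the 16 arrays (y axis, log2), by group (x axis). Points are arrays, bars are group means, and open diamonds mark AKI 4 and VHL-KO/AKI 5. The HIF target and glycolysis lists lie higher on the VHL-KO/AKI arrays than on the AKI arrays other than AKI 4, and AKI 4 stands above the other AKI arrays in the tubule transport lists and below them in the injury list.

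Vhl, the targeted gene, lay at 7.16, 7.12, 7.17, 7.01 and 7.36 in AKI and at 6.41, 6.35, 6.52, 6.66 and 6.54 in VHL-KO/AKI. Every VHL-KO/AKI array was below every AKI array. The difference was -0.67 (SE 0.0674, adjusted p = 9.98e-05, limma with Benjamini-Hochberg adjustment over all genes, as for every adjusted p below). Whether its probes lie inside the stretch that is removed was not tested.

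With the deletion, genes of the HIF response and of glycolysis were higher in injured kidneys, and immediate early genes were lower. Limma called 774 genes (3.88% of those tested) at an adjusted p under 0.05, 495 higher (2.48%) and 279 lower (1.4%). Of these, 63 rose and 28 fell by at least 2-fold. For 295 of the higher and 144 of the lower genes, all 5 arrays of one group lay beyond all 5 of the other. Over all genes this separation held for 2.19% in the higher and 1.58% in the lower direction. The share of higher genes among the calls was 64.0%. It depended on scaling, at 47.3% after centring each array by its median (359 higher, 1.8% of all genes, and 400 lower, 2.01%), 48.6% after quantile scaling (395 and 417) and 56.0% after cyclic loess (433 and 340). Without AKI 4 the counts were 1442 higher (7.23%) and 942 lower (4.72%), and all 495 and 279 genes were among them. Without VHL-KO/AKI 5 they were 956 (4.79%) and 635 (3.18%). Leaving out other arrays gave 215 higher and 77 lower genes without AKI 3, 234 and 106 without AKI 5, 175 and 54 without VHL-KO/AKI 1, 217 and 74 without VHL-KO/AKI 2, 192 and 66 without VHL-KO/AKI 3, and 281 and 204 without VHL-KO/AKI 4. Without AKI 1 the counts were 338 and 179, and without AKI 2 they were 459 and 300. Below, a call lost to a number of arrays is one that ended when any 1 of that many of the 10 injured arrays was left out. With only the 10 injured arrays in the fit, so that the uninjured arrays did not add to the estimate of the spread, 182 were higher and 41 lower.

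**Figure D2:**
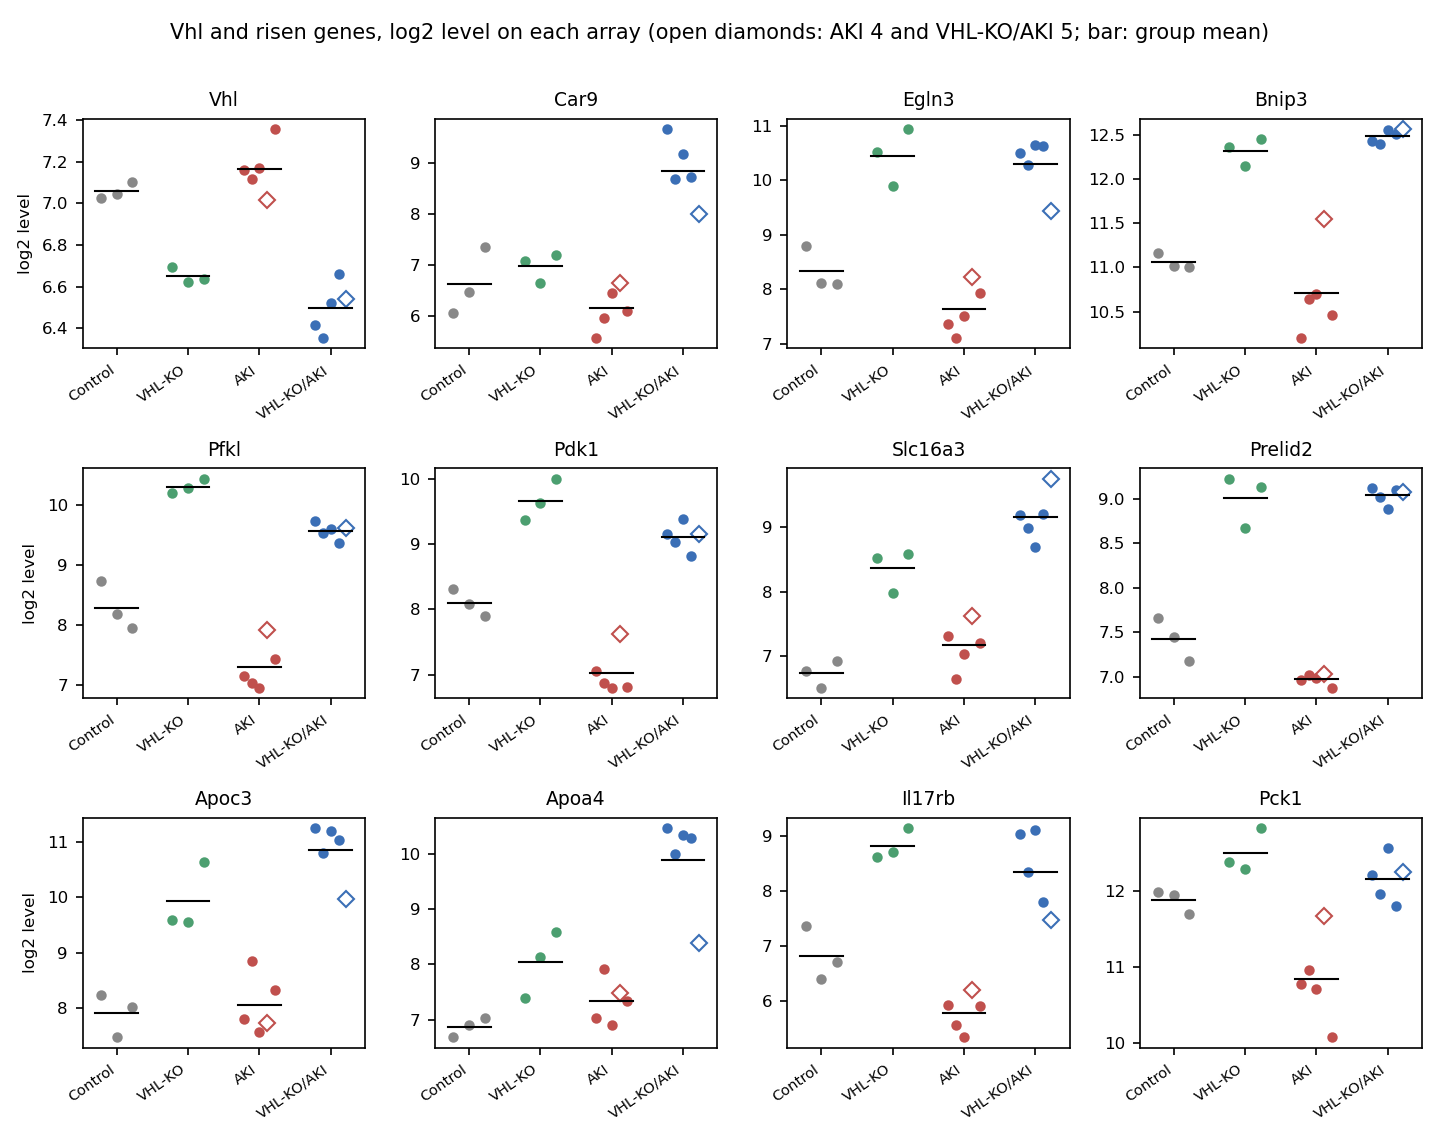
Log2 level (y axis) of Vhl and of 11 genes that rose with the deletion, on each of the 16 arrays by group (x axis). Points are arrays, bars are group means, and open diamonds mark AKI 4 and VHL-KO/AKI 5. In each of the 12 panels the 5 VHL-KO/AKI arrays lie on one side of the 5 AKI arrays. Except for Vhl and Pck1, the rule that picked the genes required this.

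Target genes of HIF rose as a large share of their list. Of 47 measured targets 21 rose (44.7%, against 2.48% of all genes), 0 fell and 26 did not pass. The list median was 0.43, beside -0.01 over all genes. Car9, which encodes carbonic anhydrase 9 on the cell surface and is a classical HIF target, lay at 5.58, 5.97, 6.46, 6.66 and 6.11 in AKI and at 9.67, 8.69, 9.18, 8.74 and 8.0 in VHL-KO/AKI. The groups were far apart, with VHL-KO/AKI 5 the lowest of its group, and Car9 rose by 2.70 (SE 0.30, adjusted p = 0.000216). Egln3, an oxygen-sensing prolyl hydroxylase that marks HIF for breakdown, lay at 7.36, 7.10, 7.51, 8.23 and 7.94 against 10.50, 10.28, 10.64, 10.62 and 9.43, a rise of 2.67 (adjusted p = 9.99e-05). Bnip3, which targets mitochondria for removal, lay at 10.20, 10.65, 10.70, 11.55 and 10.46 against 12.42, 12.40, 12.55, 12.51 and 12.56. The VHL-KO/AKI arrays agreed closely in Bnip3, AKI 4 was the highest of its group, and the rise was 1.78 (adjusted p = 9.09e-05).

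Other called HIF targets have diverse roles. The adenylate kinase Ak4 rose by 1.30 (adjusted p = 0.0186, and by 1.62 without AKI 4, whose level of 11.64 overlapped the knockout group). Fam162a, a mitochondrial protein gene, rose by 1.04 and Ankrd37, an ankyrin repeat gene, by 0.98 (adjusted p = 2.02e-05 and 0.00615). Bnip3l, a close relative of Bnip3, rose by 0.71 (adjusted p = 9.99e-05). Adm, the gene of the vasodilator adrenomedullin, rose by 0.68 (adjusted p = 0.0496), a call that ended after each of the 3 scalings and when any of 9 of the 10 injured arrays was left out. Well-known members of the list did not pass. Vegfa, which encodes the main vascular growth factor, differed by 0.46 (adjusted p = 0.231), with AKI 4 at 10.21 above every VHL-KO/AKI array (9.74 to 9.90), and passed without that array (0.68, adjusted p = 0.00533). The histone demethylase gene Kdm3a differed by less than 0.01 in size (95% interval -0.35 to 0.35) and Ndrg1, a stress-induced gene, by 0.09 (-0.10 to 0.28). Slc2a1, a glucose carrier gene counted in the glycolysis list and not in this one, differed by 0.15 (-0.18 to 0.47) and did not pass. Without AKI 4, 24 of the 47 rose and 0 fell, and without VHL-KO/AKI 5, 21 rose and 1 fell (the chemokine receptor gene Cxcr4, named from its values). The shares of all genes in these fits were 7.23% and 4.79% higher, and 4.72% and 3.18% lower. AKI 4 had the highest level among the AKI arrays for 26 of the 47 targets (55.3%), whereas it was highest for 29.6% of all genes. The call of Ak4 was lost without VHL-KO/AKI 1 and without VHL-KO/AKI 3.

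Among 17 genes of the HIF pathway itself, 3 rose, 2 fell and 12 did not pass, beside 2.48% of all genes higher and 1.4% lower. The list includes the targeted gene Vhl, and its members Egln1 and Egln3 are also counted among the HIF targets. Egln1, the main oxygen-sensing prolyl hydroxylase, lay at 9.09, 8.99, 9.09, 9.46 and 9.17 in AKI and between 9.95 and 10.07 in VHL-KO/AKI, a rise of 0.85 (SE 0.08, adjusted p = 2.92e-05). Egln3 was the second and Hif3a, an alpha subunit whose short forms can restrain the others, the third (0.64, adjusted p = 0.00583). The signal of Hif3a was low, at means of 4.63 in AKI and 5.27 in VHL-KO/AKI, below every array median (5.92 to 6.03). The genes that fell were Vhl and Hif1a, the latter by 0.44 (adjusted p = 0.0167). Epas1, which encodes HIF-2 alpha, differed by 0.12 (95% interval -0.13 to 0.36). These are transcript levels, and HIF protein was not measured. The fall of Hif1a was lost without VHL-KO/AKI 1.

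Promoters of the 4 called HIF target or glycolysis genes with the largest rise are printed because they show the letters of the core of the HIF response element beside the largest changes. Each runs from 250 bases before to 50 bases after the start of the gene (RefSeq, GRCm38.p6), 5′ to 3′ on the gene's strand, with matches to ACGTG or GCGTG on either strand in capitals. They are Car9 (chr4:43506776-43507075, plus strand), Egln3 (chr12:54203825-54204124, minus), Pfkl (chr10:78009758-78010057, minus) and Bnip3 (chr7:138909457-138909756, minus).
Car9: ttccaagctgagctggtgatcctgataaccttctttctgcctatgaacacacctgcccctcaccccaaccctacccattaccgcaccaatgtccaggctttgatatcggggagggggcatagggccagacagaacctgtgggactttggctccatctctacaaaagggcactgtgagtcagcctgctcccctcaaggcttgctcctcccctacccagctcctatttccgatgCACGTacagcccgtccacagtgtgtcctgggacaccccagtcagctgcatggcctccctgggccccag
Egln3: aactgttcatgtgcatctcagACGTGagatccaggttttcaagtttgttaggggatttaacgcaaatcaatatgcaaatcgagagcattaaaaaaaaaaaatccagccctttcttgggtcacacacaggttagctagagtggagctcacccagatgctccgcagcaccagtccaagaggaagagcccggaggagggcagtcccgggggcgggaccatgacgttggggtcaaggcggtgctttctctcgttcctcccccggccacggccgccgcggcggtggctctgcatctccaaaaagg
Pfkl: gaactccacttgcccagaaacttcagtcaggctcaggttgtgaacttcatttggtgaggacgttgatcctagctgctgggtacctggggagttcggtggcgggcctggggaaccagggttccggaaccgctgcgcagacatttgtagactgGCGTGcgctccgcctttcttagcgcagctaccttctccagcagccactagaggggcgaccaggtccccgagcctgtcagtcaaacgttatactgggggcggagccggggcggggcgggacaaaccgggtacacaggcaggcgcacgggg
Bnip3: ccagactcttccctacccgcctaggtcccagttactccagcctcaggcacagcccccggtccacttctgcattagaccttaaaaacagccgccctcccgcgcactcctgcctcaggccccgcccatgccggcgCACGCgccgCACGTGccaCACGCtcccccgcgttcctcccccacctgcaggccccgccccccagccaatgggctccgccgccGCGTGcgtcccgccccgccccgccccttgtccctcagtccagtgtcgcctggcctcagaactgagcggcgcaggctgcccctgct
Car9 held 1 match, 18 bases before the start, Egln3 held 1 at 229 bases before it and Pfkl 1 at 99 bases before it. Bnip3 held 5 matches, a pair of which overlap where the match reads the same on both strands. Of the 30 called members of these lists 27 had a promoter in the table, and 24 of the 27 (88.9%) held a match in at least 1 promoter. Members that did not pass held one in 23 of 28 cases (82.1%), and all tested genes with a promoter in 8632 of 15614 (55.3%). A match is a match of letters only, and no binding was measured.

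Enzymes of glycolysis rose at several steps of the pathway. Of 19 measured genes 9 rose (47.4%, against 2.48% of all genes), 0 fell and 10 did not pass, with a median of 0.46. Pfkl, the liver form of phosphofructokinase, which commits glucose to glycolysis, lay at 7.15, 7.04, 6.96, 7.91 and 7.44 in AKI and at 9.73, 9.54, 9.61, 9.37 and 9.61 in VHL-KO/AKI. All knockout arrays lay well above all AKI arrays, and Pfkl rose by 2.27 (SE 0.17, adjusted p = 7.39e-06). The platelet form Pfkp lay at 8.73, 7.97, 8.46, 9.40 and 8.48 against 9.92 to 10.20 and rose by 1.42 (adjusted p = 0.00143). Further down the pathway the aldolase gene Aldoc rose by 1.17, Tpi1 (triosephosphate isomerase) by 0.83, Pgk1 (phosphoglycerate kinase) by 0.83 and Pgam1 (phosphoglycerate mutase) by 0.72. Aldoc overlapped through AKI 4 (8.70), and the other 3 did not overlap. Pgm1, which links glycogen to glycolysis, rose by 1.01 (adjusted p = 9.99e-05). Without AKI 4, 11 of the 19 rose and 1 fell (Pgm2, a phosphoglucomutase named from its values), and without VHL-KO/AKI 5, 10 rose and 0 fell. In these fits 7.23% and 4.79% of all genes rose, and 4.72% and 3.18% fell. The call of Aldoc was lost to 7 arrays.

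A few genes of pyruvate and lactate handling rose. In the list of 21 genes 3 rose, 0 fell and 18 did not pass (median 0.25), beside 2.48% of all genes higher and 1.4% lower. Pdk1, a kinase that keeps pyruvate out of the citric acid cycle, lay at 7.05, 6.87, 6.80, 7.63 and 6.80 in AKI and at 9.15, 9.02, 9.37, 8.81 and 9.15 in VHL-KO/AKI. It rose by 2.07 (SE 0.16, adjusted p = 9.01e-06) with no overlap. Slc16a3, which exports lactate from glycolytic cells, lay at 7.32, 6.64, 7.04, 7.63 and 7.21 against 9.20, 8.99, 8.69, 9.21 and 9.76. VHL-KO/AKI 5, the lowest knockout array in Car9 and Egln3, was the highest here, and the rise was 2.00 (adjusted p = 9.49e-05). Ldha, the lactate dehydrogenase subunit that favours lactate, rose by 0.79 (adjusted p = 0.00068). Gys1, the muscle-type glycogen synthase, was the only called gene of 14 for the pentose phosphate pathway and glycogen, with a rise of 1.16 (SE 0.09, adjusted p = 7.39e-06). Without AKI 4, 11 of the 21 pyruvate and lactate genes rose and 4 of the 14, beside 7.23% of all genes.

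Some genes of glucose production and fat burning, functions of the proximal tubule, rose too. Of 9 gluconeogenesis genes 3 rose, 0 fell and 6 did not pass, all 9 differences were positive and the median was 0.63. Pck1, the rate-limiting enzyme, lay at 10.77, 10.95, 10.71, 11.66 and 10.07 in AKI and at 12.21, 11.96, 12.56, 11.80 and 12.25 in VHL-KO/AKI, a rise of 1.32 (adjusted p = 0.00633). The groups did not overlap, and AKI 4 was the highest AKI array, just below the lowest knockout array. Slc37a4, the glucose-6-phosphate carrier of the endoplasmic reticulum, rose by 1.31 (adjusted p = 0.0473) with overlap, a call lost after centring, and the mitochondrial Pck2 by 0.36 (adjusted p = 0.0248). Of 28 fatty acid oxidation genes 4 rose, 0 fell and 24 did not pass (median 0.44, 26 differences positive). Ppara, the nuclear receptor that drives this pathway, lay at 8.94, 9.10, 9.34, 9.12 and 8.46 against 10.01, 9.70, 10.26, 9.92 and 9.70 and rose by 0.92 (adjusted p = 0.0159). The peroxisomal enzyme gene Hsd17b4 rose by 0.43 (adjusted p = 0.0154). Eci2 rose by 0.56 and Hadha, a subunit of the mitochondrial trifunctional protein, by 0.35, and both calls were lost after cyclic loess scaling, that of Hadha after centring too. The calls of Slc37a4 and Hadha were lost to 8 arrays, Eci2 to 9, Pck2 to 5 and Ppara to 2 (VHL-KO/AKI 1 and VHL-KO/AKI 3). Pck1 and Hsd17b4 were lost to 0. Without AKI 4, 7 of the 9 and 15 of the 28 genes rose and 0 fell, beside 7.23% of all genes higher and 4.72% lower. With all arrays the shares over all genes were 2.48% and 1.4%. In the uninjured kidney 0 genes of either list were called, at a background of 0.476% of all genes called higher and 0.0502% lower.

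Calls among genes of mitochondrial energy use were too few to set apart from the 3.88% of all genes called either way. Of 22 citric acid cycle genes 0 rose and 0 fell by limma, also at an unadjusted p under 0.05 (median 0.07). The smallest p was that of Idh2, which differed by 0.42 (adjusted p = 0.324) and passed without AKI 4 (0.69, adjusted p = 0.000885). AKI 4 at 10.47 lay above every knockout array (9.64 to 10.12). Of 46 respiratory chain genes 0 rose, 1 fell and 45 did not pass (median 0.03). The gene that fell was Cycs, which encodes cytochrome c, by 0.45 (adjusted p = 0.0382). Limma called 0 of 24 genes of mitochondrial biogenesis and dynamics (median 0.13), of which 4 were higher and 2 lower at an unadjusted p under 0.05, a level that 18.7% of all genes passed in either direction. Without AKI 4, 4 citric acid cycle genes, 5 respiratory chain genes and 4 biogenesis genes rose, and 0, 1 and 0 fell, beside 7.23% and 4.72% of all genes. In the list of mitophagy and autophagy Bnip3 and Bnip3l rose, Sqstm1, an autophagy adaptor and NRF2 target, fell by 0.38 (adjusted p = 0.0296, lost after quantile scaling), and 16 of 19 did not pass. The falls of Cycs and Sqstm1 were lost to 7 and 6 arrays.

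Several of the largest rises lay outside these pathways. Among all called genes Vmn1r32, of a vomeronasal receptor family that the naming rule skips and so picked from its values, rose most, from 4.90, 5.22, 5.11, 5.92 and 5.01 to 9.98, 10.10, 10.43, 10.17 and 10.58 (difference 5.02, SE 0.22, adjusted p = 8.83e-09). It belongs to a family of near-identical genes, so which transcript its probes caught is uncertain. Apoc3, an apolipoprotein that slows the clearance of triglyceride, lay at 7.81, 8.85, 7.56, 7.73 and 8.33 against 11.24, 10.79, 11.18, 11.03 and 9.97 and rose by 2.78 (SE 0.30, adjusted p = 0.00015). Apoa4, from the same gene cluster, lay at 7.02, 7.92, 6.91, 7.48 and 7.34 against 10.46, 9.98, 10.33, 10.28 and 8.38, a rise of 2.55 (adjusted p = 0.00128). In both, VHL-KO/AKI 5 was the lowest knockout array and still above all AKI arrays. Apoa1, of the same cluster, rose by 0.61 (adjusted p = 0.0496), a call lost after centring. Its call was also lost to 7 arrays.

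Il17rb, a receptor for interleukin-25, lay at 5.91, 5.55, 5.33, 6.20 and 5.90 in AKI and at 9.04, 8.34, 9.10, 7.80 and 7.47 in VHL-KO/AKI, a rise of 2.57 (adjusted p = 0.000292). The beta-defensin gene Defb19 rose by 2.38 (adjusted p = 0.0133) and Gstp3, a glutathione transferase of the pi class, by 1.91 (adjusted p = 0.00114). Prelid2, of the family of mitochondrial lipid transfer proteins, rose with little spread, from between 6.88 and 7.03 in AKI to between 8.89 and 9.13 in VHL-KO/AKI (2.07, SE 0.10, adjusted p = 3.61e-08). Ccl28, a chemokine of mucosal surfaces named from its values, lay at 6.75, 6.45, 6.77, 7.60 and 6.87 against 10.91, 9.91, 10.20, 9.80 and 7.32. Its group difference of 2.74 (adjusted p = 0.0113) came with overlap, as VHL-KO/AKI 5 lay below AKI 4 and the other 4 knockout arrays lay above every AKI array.

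Oxygen-dependent modifying enzymes and vascular peptides included risen genes, some of them already counted as HIF targets. Of 23 collagen and histone oxygenases 5 rose, 1 fell and 17 did not pass, beside 2.48% of all genes higher and 1.4% lower. Plod2 and Plod1, which hydroxylate lysine in collagen, rose by 0.68 and 0.66, P4ha1, which hydroxylates proline, by 0.62, and the histone demethylase gene Kdm4b by 0.53 (adjusted p between 0.000276 and 0.022). All 4 separated the groups. P4ha2 rose too, and all 5 are among the 21 risen HIF targets described above. So are Adm, of the vasoactive genes, and Car9, of the carbonic anhydrases. Of 29 vasoactive and angiogenic genes 4 rose, 1 fell and 24 did not pass. Edn3, a peptide of the endothelin family, lay at 6.69, 6.53, 6.36, 6.4 and 6.41 against 8.76, 8.19, 7.81, 8.12 and 7.38 and rose by 1.57 (adjusted p = 0.000994). Agt, the precursor of angiotensin, rose by 0.86 (adjusted p = 0.0284). The gene of this list that fell was Ptgs2, the inducible cyclooxygenase, described with the stress genes. Without AKI 4, 9 of the 29 rose and 1 fell, beside 7.23% and 4.72% of all genes. Among 11 carbonic anhydrases Car9 rose and Car2, the abundant cytosolic form, fell by 0.43 (adjusted p = 0.039). Plod2 was lost without VHL-KO/AKI 1, Agt to 5 arrays and Car2 to 7.

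**Figure D3:**
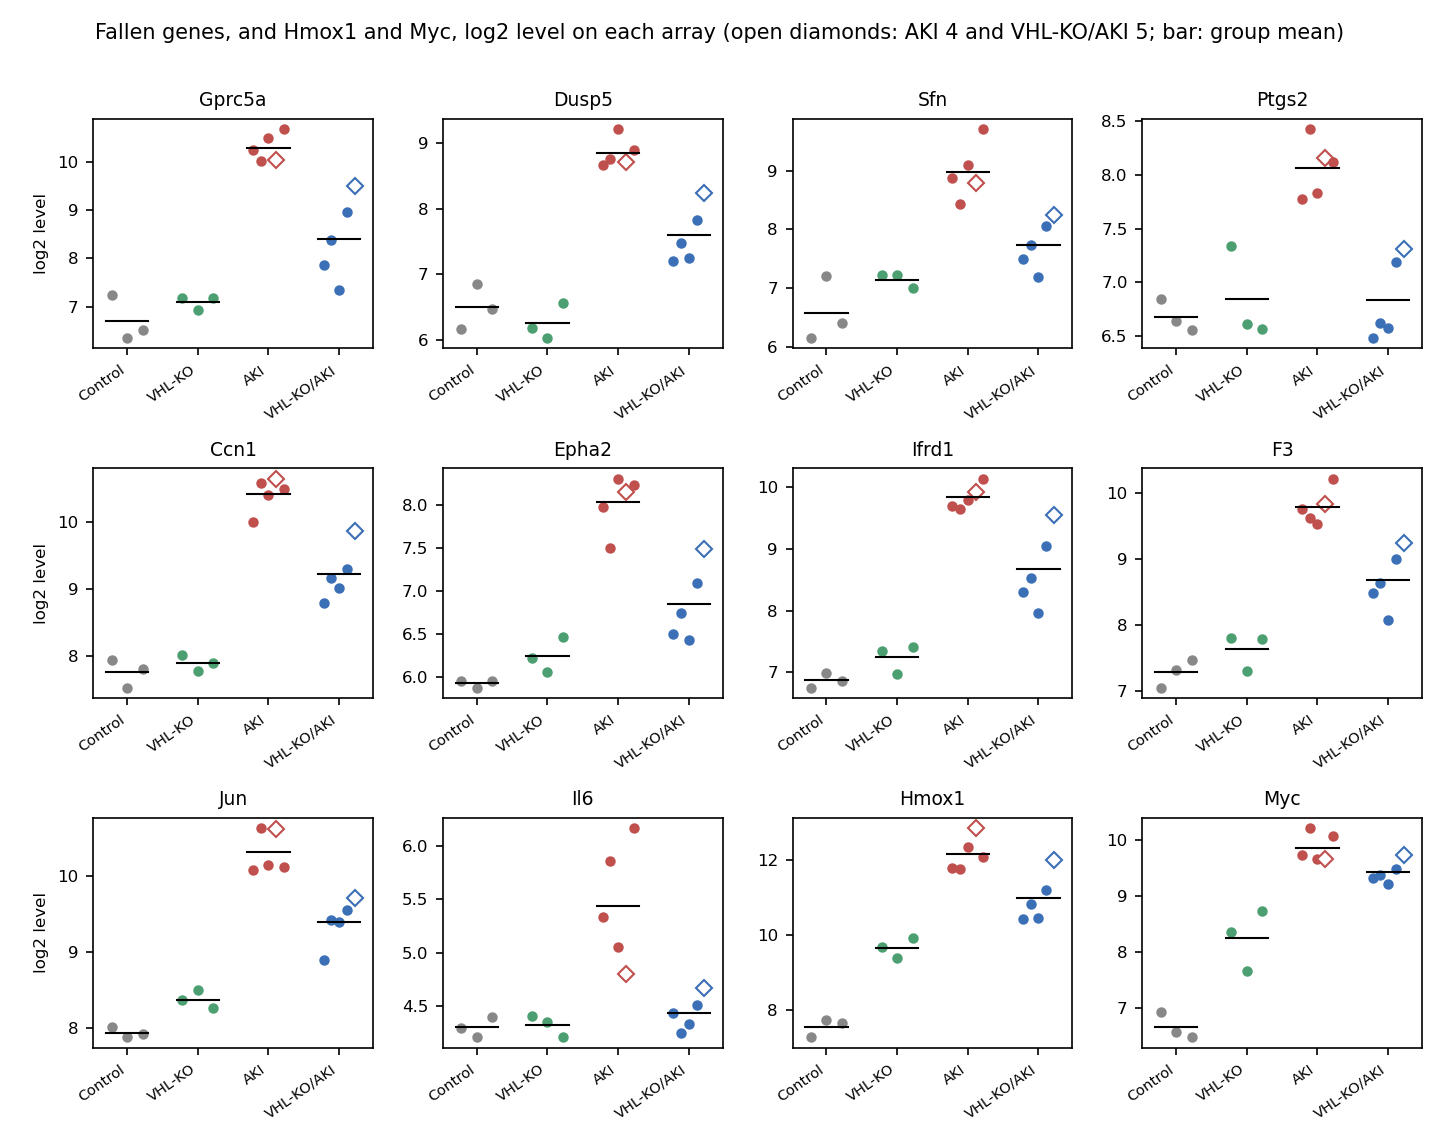
Log2 level (y axis) of 10 genes that fell with the deletion in injured kidneys, and of Hmox1 and Myc, on each of the 16 arrays by group (x axis). Points are arrays, bars are group means, and open diamonds mark AKI 4 and VHL-KO/AKI 5. VHL-KO/AKI 5 is the highest knockout array in all 12 panels, at 9.49 for Gprc5a against 7.35 to 8.95 in the other 4.

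Immediate early and AP-1 genes, which cells switch on within minutes to hours of stress, were lower with the deletion. Of 29 measured genes 8 fell (27.6%, against 1.4% of all genes), 0 rose and 21 did not pass. The list median was -0.74 and only 1 difference was positive. Jun, a subunit of AP-1, lay at 10.08, 10.63, 10.14, 10.61 and 10.12 in AKI and at 8.89, 9.42, 9.40, 9.56 and 9.71 in VHL-KO/AKI, a fall of 0.92 (SE 0.14, adjusted p = 0.00414). The groups did not overlap and VHL-KO/AKI 5 was nearest to the AKI arrays. Atf3, a stress-induced repressor, lay at 9.74, 9.69, 10.17, 11.52 and 10.18 against 8.74, 8.51, 7.88, 8.86 and 9.80 and fell by 1.50 (adjusted p = 0.0378), with overlap through VHL-KO/AKI 5. Egr1, a zinc finger transcription factor, fell by 1.30 and Fosl1, another AP-1 subunit, by 1.08 (adjusted p = 0.0334 and 0.0294). Without AKI 4 the falls of Atf3 and Egr1 were 1.19 and 1.04, and 12 of the 29 genes fell and 1 rose (Dusp6, a feedback phosphatase of ERK, named from its values). Without VHL-KO/AKI 5, 16 fell and 0 rose. More genes fell over all genes too in these fits, 4.72% without AKI 4 and 3.18% without VHL-KO/AKI 5. In AKI 4 this list was higher (8.82) than in the other AKI arrays (7.87 to 8.42), in contrast to its low injury markers. Leaving out single arrays ended the calls of Egr1 (7 arrays), Atf3 (6) and Fosl1 (5), which overlapped, but that of Jun with 0 of the 10.

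The largest falls by the naming rule included genes of growth and stress signalling. Gprc5a, an orphan G protein-coupled receptor of epithelia, lay at 10.24, 10.02, 10.48, 10.03 and 10.67 in AKI and at 7.87, 8.37, 7.35, 8.95 and 9.49 in VHL-KO/AKI. It fell by 1.88 (SE 0.32, adjusted p = 0.00605), and all knockout arrays were lower. The phosphatase gene Dusp5, which turns off ERK signalling, lay at 8.68, 8.76, 9.22, 8.71 and 8.89 against 7.20, 7.48, 7.24, 7.84 and 8.24, a fall of 1.25 (adjusted p = 0.00375). Ptgs2 lay at 7.77, 8.42, 7.83, 8.16 and 8.12 against 6.48, 6.63, 6.58, 7.19 and 7.31 and fell by 1.22 (adjusted p = 0.00375). The matricellular gene Ccn1 fell by 1.20, the receptor kinase gene Epha2 by 1.18, Ifrd1 by 1.17, and F3, which encodes tissue factor, the trigger of clotting, by 1.11. These 7 calls held with any single injured array left out. Osgin1 and Plk3 (oxidative and genotoxic stress), Hbegf (a ligand of the EGF receptor), Rnd3 and Sfn fell by between 1.09 and 1.53 and each lost its call without at least 1 array. For Osgin1, AKI 4 at 11.36 stood above the other AKI arrays (8.77 to 9.50), and the fall was 1.07 without it. Osgin1 and Hbegf were lost to 6 arrays, Plk3 to 5, Rnd3 to 3 and Sfn to 1 (VHL-KO/AKI 1).

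Tubular injury markers moved less uniformly. Of 27 measured markers 4 fell, 2 rose and 21 did not pass, beside 1.4% of all genes lower and 2.48% higher. The list median was -0.28. Plaur, the urokinase receptor, fell by 1.22 (adjusted p = 0.0418) and Krt18, a simple epithelial keratin, by 0.90 (adjusted p = 0.0177), and Hbegf fell as given above. Gpnmb, a glycoprotein of phagocytic cells, rose by 0.53 (adjusted p = 0.03). The next 3 markers are widely used ones and were chosen after their values were seen. Havcr1 lay at 13.00, 13.13, 12.23, 9.30 and 13.03 in AKI and at 12.24, 12.50, 11.83, 12.64 and 12.78 in VHL-KO/AKI, with a difference of 0.26 (adjusted p = 0.86). Its sign depended on AKI 4, and it was -0.45 without that array (adjusted p = 0.219). Krt20 lay at 11.57, 11.61, 11.34, 8.95 and 11.40 against 9.37, 10.49, 9.41, 10.85 and 11.21. It differed by -0.71 (adjusted p = 0.454) and passed without AKI 4 (-1.21, adjusted p = 0.0186), when all knockout arrays were lower. Lcn2, which encodes the urinary injury marker NGAL, differed by -0.28 (95% interval -0.72 to 0.16). Without AKI 4, 9 of the 27 markers fell and 2 rose, beside 4.72% and 7.23% of all genes. Without VHL-KO/AKI 5, 6 fell and 2 rose, beside 3.18% and 4.79%. In every injured array Havcr1 and Lcn2 stood above the uninjured group means of 6.38 to 6.41 and 8.31 to 8.92. Plaur, whose groups overlapped, was lost to 8 arrays, Gpnmb to 6, and Krt18 to 2 (AKI 3 and VHL-KO/AKI 1).

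Haem, heat shock and endoplasmic reticulum stress genes gave a few calls each. Over all genes 2.48% rose and 1.4% fell, and 7.23% and 4.72% did so without AKI 4. Hmox1, which breaks down haem, lay at 11.79, 11.76, 12.34, 12.85 and 12.09 in AKI and at 10.43, 10.83, 10.45, 11.20 and 12.01 in VHL-KO/AKI. It fell by 1.18 (SE 0.28, adjusted p = 0.0312), and the groups overlapped through VHL-KO/AKI 5. Txnrd1, thioredoxin reductase, fell by 0.90 (adjusted p = 0.0104), and the transferrin receptor gene Tfrc rose by 1.02 (adjusted p = 0.0228). Slc11a2, which carries iron into cells, rose by 0.80 (adjusted p = 0.0455), a call lost after quantile and cyclic loess scaling. Of the 37 haem, iron and NRF2 genes 2 rose, 3 fell and 32 did not pass. Without AKI 4, 2 rose and 7 fell. Of 13 heat shock genes 2 fell, the co-chaperone gene Bag3 by 0.66 and Hspa8 by 0.20, and without AKI 4, 6 fell. Of 28 genes of endoplasmic reticulum and ATF4 stress 2 rose, 2 fell and 24 did not pass. Atf4 itself fell by 0.63 (adjusted p = 0.0496) and the amino acid transporter subunit Slc3a2 by 0.45. Shmt2, of mitochondrial one-carbon metabolism, lay at 9.18, 9.39, 9.27, 10.13 and 9.32 against 10.94, 10.64, 10.85, 10.62 and 10.25 and rose by 1.20 (adjusted p = 0.00151). The lipoprotein receptor gene Vldlr, listed here and a known HIF target, rose by 0.95 (adjusted p = 0.000411). Calls lost to single arrays were those of Atf4 (8), Slc11a2 and Hspa8 (7), Slc3a2 (6), and Hmox1 and Tfrc (5).

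Inflammatory signals were lower for a small set of genes. Of 34 cytokines and chemokines 4 fell, 1 rose and 29 did not pass, beside 1.4% of all genes lower and 2.48% higher. Il6, the main inducer of the acute phase response, lay at 5.33, 5.86, 5.05, 4.81 and 6.16 in AKI and at 4.43, 4.25, 4.34, 4.51 and 4.67 in VHL-KO/AKI. It fell by 1.00 (SE 0.20, adjusted p = 0.0147). The knockout arrays (4.25 to 4.67) lay near the uninjured group means (4.31 and 4.32 in Control and VHL-KO). The signal of Il6 was low, and on the injured arrays other than AKI 5 it lay below every array median (5.92 to 6.03). Socs3, which is induced by cytokine signals and restrains them, fell by 0.98 (adjusted p = 0.0223), and Nfkbiz, a nuclear regulator of NF-kappaB, by 0.81 (adjusted p = 0.0283). Cxcl12, a chemokine made by stromal cells, rose by 0.83 (adjusted p = 0.038), a call lost after quantile and cyclic loess scaling. The acute phase and complement genes and the interferon response had 0 calls by limma among 20 and 18 genes, and at an unadjusted p under 0.05 the first had 3 higher and 1 lower and the second 0. The fibrinogen gene Fgb ranged from 6.29 to 11.15 in AKI and from 8.59 to 11.88 in VHL-KO/AKI, and its difference changed sign without AKI 4 (0.53 and -0.31). Cxcl12 was lost to 6 arrays, Socs3 to 5 and Nfkbiz to 4.

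Calls among genes of growth arrest and proliferation were falls, apart from Mxi1, and are read against the 1.4% of all genes that fell. Of 25 p53 target and apoptosis genes 2 fell, 0 rose and 23 did not pass. Gadd45a, which responds to DNA damage, lay at 7.58, 7.50, 8.01, 9.30 and 8.13 in AKI and at 6.0, 6.31, 5.91, 6.87 and 7.50 in VHL-KO/AKI, a fall of 1.59 (adjusted p = 0.0198, and 1.29 without AKI 4). Mdm2, the ligase that limits p53, fell by 0.55 (adjusted p = 0.0363). Of 29 cell cycle genes 1 fell, Top2a, the topoisomerase of dividing cells, by 0.60 (adjusted p = 0.0281). Myc differed by -0.44 (adjusted p = 0.188), and its antagonist Mxi1 rose by 0.51 (adjusted p = 0.032), a call lost after quantile and cyclic loess scaling. Of 29 growth factor and repair genes 2 fell, Hbegf and Pax8, the transcription factor whose promoter names the driver line, which fell by 0.42 (adjusted p = 0.0168). Mxi1 was lost to 6 arrays, Mdm2 and Top2a to 5, and Gadd45a to 3.

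Transport genes had positive median differences in each nephron segment, and more of them were called without AKI 4, as of all genes. Among all genes 2.48% rose with all arrays, 7.23% without AKI 4 and 4.79% without VHL-KO/AKI 5, and 1.4%, 4.72% and 3.18% fell. In whole-tissue RNA, fewer cells of a type and less RNA per cell cannot be told apart, which holds for every segment and cell type below. Of 35 proximal tubule transport genes 0 rose, 1 fell and 34 did not pass (median 0.17). Without AKI 4, 15 rose and 1 fell (median 0.39), and without VHL-KO/AKI 5, 4 rose and 1 fell. The gene that fell both ways was Abcc2, an exporter of organic anions, at 11.91, 11.85, 12.49, 12.10 and 11.96 in AKI against 11.50, 11.56, 11.39, 11.47 and 11.81 in VHL-KO/AKI (-0.52, adjusted p = 0.033). Of 41 proximal tubule enzymes 3 rose and 0 fell, and without AKI 4, 14 rose and 0 fell. Ddc, which makes dopamine, lay at 9.22, 9.28, 9.05, 9.38 and 8.79 against 9.65, 10.08, 9.91, 10.18 and 10.44 and rose by 0.91 (adjusted p = 0.00292). Acmsd, of tryptophan breakdown, lay at 7.04, 6.61, 6.84, 9.83 and 7.51 against 10.75, 10.16, 10.18, 9.55 and 7.88. Its rise of 2.14 (adjusted p = 0.0496) was 2.70 without AKI 4 and was lost after centring and cyclic loess scaling. Cyp4a14, a fatty acid hydroxylase controlled by PPAR alpha, rose by 2.12 (adjusted p = 0.0254). Acmsd was lost to 8 arrays, Abcc2 to 6 and Cyp4a14 to 4.

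In the thick ascending limb and distal tubule 3 of 24 genes rose, 0 fell and 21 did not pass (median 0.36). Without AKI 4, 12 rose and 0 fell, and without VHL-KO/AKI 5, 7 rose and 0 fell. The shares of all genes that rose were 2.48% with all arrays and 7.23% and 4.79% in these fits. Kcnj1, the potassium channel ROMK that supports salt uptake, lay at 9.0, 9.43, 8.59, 9.26 and 8.97 in AKI and at 10.71, 10.40, 10.74, 10.33 and 9.51 in VHL-KO/AKI. It rose by 1.28 (SE 0.20, adjusted p = 0.0045) with no overlap. Cldn10, which forms the sodium path between thick limb cells, rose by 1.30 (adjusted p = 0.0206) and overlapped through AKI 4 (10.83) and VHL-KO/AKI 5 (10.26). The potassium channel gene Kcnj10 rose by 0.56 (adjusted p = 0.0198). Slc12a1, the salt carrier blocked by loop diuretics, lay at 9.06, 9.09, 9.75, 12.07 and 8.37 against 11.43, 10.96, 11.55, 10.73 and 9.42. It differed by 1.15 (adjusted p = 0.281) and by 1.75 without AKI 4 (adjusted p = 0.00649). Egf, a growth factor made by these segments, lay at 7.53, 7.52, 8.20, 11.72 and 7.28 against 10.54, 9.60, 10.90, 9.13 and 8.34 (1.25, adjusted p = 0.369, and 2.07 without AKI 4, adjusted p = 0.00478). The calls of Cldn10 and Kcnj10 were lost to 5 arrays each.

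In the collecting duct, subunits of the epithelial sodium channel rose. Of 26 measured genes 3 rose, 2 fell and 21 did not pass. Without AKI 4, 8 rose and 2 fell, and without VHL-KO/AKI 5, 7 rose and 2 fell. Beside these, 2.48% of all genes rose and 1.4% fell with all arrays. The shares were 7.23% and 4.72% without AKI 4, and 4.79% and 3.18% without VHL-KO/AKI 5. Scnn1g lay at 9.12, 9.19, 8.50, 9.03 and 8.94 in AKI and at 9.96, 9.77, 10.03, 9.70 and 9.43 in VHL-KO/AKI, a rise of 0.82 (adjusted p = 0.00464), and Scnn1b rose by 0.40 (adjusted p = 0.0257). Slc4a9, a bicarbonate carrier of intercalated cells, lay at 8.87, 8.79, 8.89, 9.20 and 9.06 against 8.38, 8.35, 8.44, 8.36 and 8.36 and fell by 0.59 (adjusted p = 0.00705), and Car2 fell as given above. The proton pump subunit gene Atp6v0d2, of the same cells, rose by 0.39 (adjusted p = 0.03). Claudins divided by member. Cldn8, of the collecting duct, rose by 0.60 and the leaky proximal claudin gene Cldn2 by 0.47 (adjusted p = 0.0101 for both), whereas Cldn4 fell by 1.46 (adjusted p = 0.0327) with a wide range in VHL-KO/AKI (8.53 to 10.78). Of the 18 claudin and junction genes 3 rose, 2 fell and 13 did not pass. Slc38a2, an amino acid carrier induced by osmotic stress and starvation, fell by 0.72 (adjusted p = 0.0133), and Nfat5, the osmotic transcription factor, by 0.40 (adjusted p = 0.032), the 2 calls among 11 genes of osmotic and urea handling. Atp6v0d2 and Car2 were lost to 7 arrays, and Scnn1b, Cldn4 and Nfat5 to 6.

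**Figure D4:**
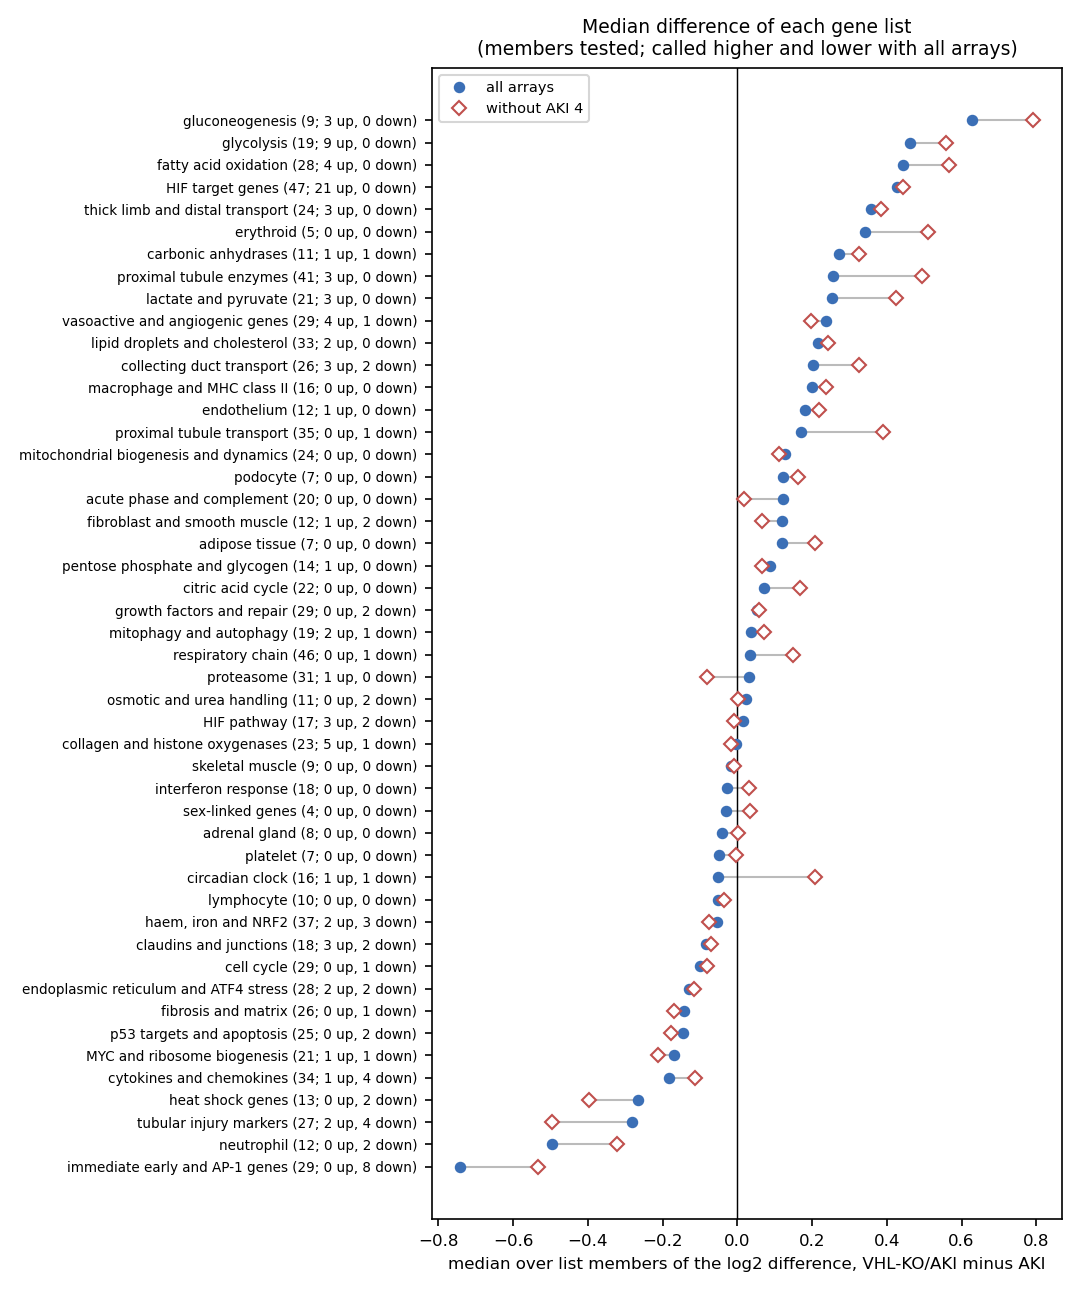
Median over list members of the log2 difference VHL-KO/AKI minus AKI (x axis) for each of the 48 gene lists (y axis), with all arrays (filled circles) and without AKI 4 (open diamonds). Labels give the members tested and those called higher and lower with all arrays. With all arrays gluconeogenesis, glycolysis, fatty acid oxidation and HIF targets have the highest medians, and immediate early genes have the lowest with and without AKI 4.

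Markers of other cell types gave few calls, which are read against 2.48% of all genes higher and 1.4% lower. Among 12 endothelial genes Ehd3, a glomerular endothelial gene, rose by 0.64 (adjusted p = 0.0402, lost after quantile scaling). Among 12 fibroblast and smooth muscle genes Dcn, the matrix proteoglycan decorin, rose by 0.69 (adjusted p = 0.0153), whereas Tagln and Acta2, contractile genes, fell by 0.93 and 0.57 (adjusted p = 0.0148 and 0.0273). The 12 neutrophil genes had 2 falls, and 0 of the 12 differences were positive (median -0.50). S100a9, an abundant neutrophil protein, lay at 6.43, 5.52, 6.07, 6.75 and 5.93 in AKI and at 4.74, 5.03, 4.79, 5.37 and 5.44 in VHL-KO/AKI, a fall of 1.07 (SE 0.20, adjusted p = 0.0104). Its partner S100a8 fell by 0.55 (adjusted p = 0.0496, lost after quantile and cyclic loess scaling). The mean level of the neutrophil list ranged from 5.02 to 5.94 in AKI, from 4.66 to 5.24 in VHL-KO/AKI and from 4.55 to 4.63 in the uninjured arrays. Apart from AKI 4 (5.94), these low levels lay below every array median (5.92 to 6.03). The part of neutrophils in the lower cytokine and immediate early genes was not tested. Limma called 0 genes among 16 of macrophages and MHC class II, 10 of lymphocytes, 7 of podocytes, 5 of erythroid cells, 7 of platelets, 9 of skeletal muscle, 7 of adipose tissue and 8 of the adrenal gland. At an unadjusted p under 0.05, 3 macrophage, 2 podocyte and 2 erythroid genes were higher, 1 muscle and 1 adipose gene were lower, and 0 of the others passed. Among these, Csf1r, the macrophage growth factor receptor, differed by 0.47 (adjusted p = 0.0603) and passed without AKI 4 (0.53, adjusted p = 0.0206). Ehd3, Acta2 and S100a8 were lost to 6 arrays each, and Tagln to 1 (VHL-KO/AKI 1).

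The same deletion in the uninjured kidney served as the comparison. Xist was low on every injured array and high on every uninjured one, and water was withdrawn only from injured mice. When the injured and uninjured differences are compared, neither can be told apart from the injury. Limma called 95 genes higher (0.476%) and 10 lower (0.0502%) in VHL-KO against Control, which rests on 3 arrays a group. Higher in both were 45 genes, which are 47.4% of the 95 and 9.09% of the 495, and lower in both were 3 genes (3 of the 10 and 1.08% of the 279). Of the 95 genes, 73 had a positive difference in the injured kidney. Of the HIF targets, 14 were called in both comparisons, of which 7 had the larger rise in injured and 7 in uninjured kidneys. Members of the HIF response and of glycolysis are given side by side. Pfkl rose by 2.02 in uninjured and 2.27 in injured kidneys, Pfkp by 1.42 in both, Pgk1 by 0.83 in both, Egln1 by 0.84 and 0.85 and Egln3 by 2.12 and 2.67. Other targets had the smaller value in injured kidneys, with 2.31 in uninjured and 0.68 in injured kidneys for Adm, 1.65 and 0.68 for Plod2, 1.38 and 0.62 for P4ha1 and 1.18 and 0.65 for the growth factor gene Fgf11. None of the interactions of Adm, Plod2 and P4ha1 passed (adjusted p = 0.0791, 0.144 and 0.13). Some genes called in the injured kidney had small differences in the uninjured one, such as Car9 (0.35, adjusted p = 0.908), Gstp3 (-0.12) and Jun (0.43, adjusted p = 0.534).

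**Figure D5:**
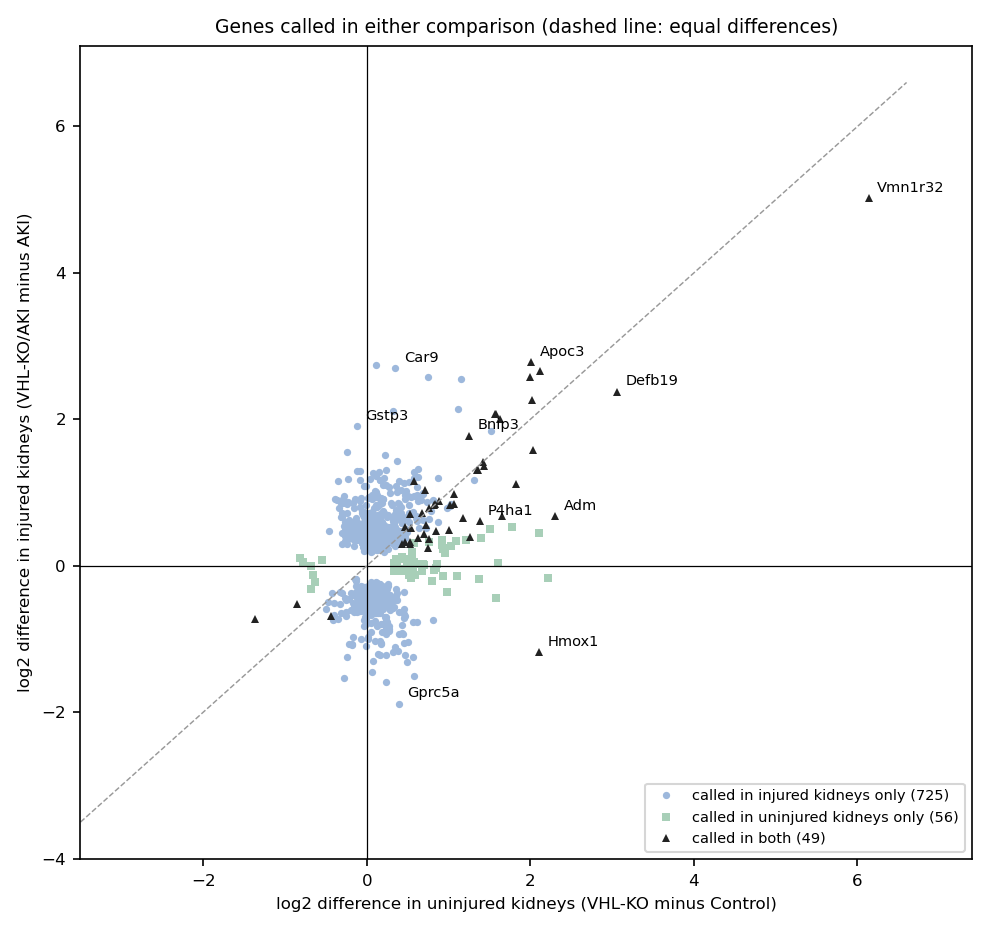
Log2 difference in injured kidneys (VHL-KO/AKI minus AKI, y axis) against that in uninjured kidneys (VHL-KO minus Control, x axis), for each gene called in at least 1 of the comparisons. The dashed line marks equal differences. Of the plotted genes 49 were called in both, 725 in injured kidneys and not in uninjured ones, and 56 the other way, and Hmox1 is the gene called in opposite directions.

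The test of the difference itself, the interaction (the injured difference minus the uninjured one), called 0 genes higher and 2 lower (0.01% of those tested). At an unadjusted p under 0.05 by limma there were 2387 genes (12% of those tested). Hmox1 lay at 7.56 ± 0.25 in Control and 9.67 ± 0.27 in VHL-KO (SD, n = 3 each), a difference of 2.11 (adjusted p = 0.0148). With injury it was lower by 1.18 in VHL-KO/AKI than in AKI, with overlap between the groups. The interaction was -3.29 (adjusted p = 0.0466). Myc lay at 6.67 in Control and 8.25 in VHL-KO, a rise of 1.58 (adjusted p = 0.00467), and its interaction was -2.02 (adjusted p = 0.0466). For Car9 the interaction was 2.35 (adjusted p = 0.0957), for Adm -1.63 (adjusted p = 0.0791) and for Gprc5a -2.28 (adjusted p = 0.116), and none of these 3 passed. Without AKI 4 it called 293 genes higher and 327 lower (1.47% and 1.64%), and without VHL-KO/AKI 5, 206 in all. It called 21 without AKI 2 and 9 without VHL-KO 2, and 1 or 0 without each of the other arrays. Xist lay at 10.23 to 11.47 on the 6 uninjured arrays and at 4.16 to 5.08 on the 10 injured ones. The mean level of the 4 sex-linked genes was 8.13 in Control 3 and 6.46 to 6.52 in the other 5 uninjured arrays, so Control 3 stood apart in them. The interaction and these sex-linked differences cannot be told apart.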

How the data were processed

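RNA from pieces of whole kidney of 16 mice was measured on expression arrays, 1 array a mouse. The authors deposited log2 expression values, made with Partek 6.4 and RMA per the submitters' processing notes, whose settings the sources used here do not give. Of 35556 probe sets, 21789 carried 1 gene symbol, 1621 several and 12146 none. Genes with several single-symbol probe sets (999) were represented by the one with the highest mean, which left 19938 genes. Array medians lay between 5.92 and 6.03, and the number of arrays limits the precision.

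One mean per group was fitted over all 16 arrays with limma 3.58.1 in R 4.3.3 (12 residual and 2.83 prior degrees of freedom), with contrasts for the injured difference, the uninjured difference and their interaction. P-values were Benjamini-Hochberg adjusted over all genes, and a gene was called at an adjusted p under 0.05. Summaries, promoter searches and plots used Python 3.11.15, and the code was tested on simulated data. The labels call the arrays biological replicates, so the spread is that between mice.

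The genes compared, the 48 gene lists and the tests were chosen with earlier results of these data known. A rule named 128 genes: Vhl, the 12 largest rises and falls among called genes with no overlap between the groups (predicted, numbered and receptor family names left out), up to 4 called members of each list or 2 where none was called, and up to 4 interaction calls each way. Another 28, of which Vmn1r32 and Ccl28 are examples, were named after their values were seen. Alternatives were the mean of a gene's probe sets, a filter at a group mean of 6, 3 scalings, trended robust variance, array weights, the injured arrays alone, the replicate number as a block, and leaving out each array. Leaving out AKI 4 with VHL-KO/AKI 5, and fitting the injured arrays without AKI 4, were added after seeing the data.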

Additional observations from a re-analysis of the deposited data

Results flagged for a closer look

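Within each group of 5 arrays, the gap of the highest or lowest array to its neighbour was divided by the range of the group, and a ratio above 0.71 marks an array far from the rest. Chance marks about 1 in 20 groups. Over 312 gene groups 27 were marked, 18 of them at AKI 4, and over 96 list groups 13 were marked, 11 of them at AKI 4. Lists share genes with each other and with the named genes, so the marks are not independent. Of the 156 genes behind the gene groups, 28 were named after their values were seen and others for their changes in these data. The count of marked gene groups can therefore not be set against chance.

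At AKI 4 the widest ratio was that of Epo (0.989, a level of 9.35 against 4.12 to 4.18 in the other AKI arrays). Krt20 followed among injury markers (0.899, 8.95 against 11.34 to 11.61), with Havcr1 at 0.764 and the liver-type acute phase gene Fgb at 0.764 (6.29 against 10.00 to 11.15). The lipid droplet coat gene Plin2 (0.839) and Acta1 (0.807), skeletal muscle actin, were also low there, as was the collagen lysine hydroxylase gene Plod2 (0.711). Genes that were high in AKI 4 included the glucose carrier gene Slc2a3 (0.855, 7.67 against 5.24 to 5.59) and Egf (0.792, 11.72 against 7.28 to 8.20). Metabolic genes high there were Idh2 (0.822), Got1 (0.811), Shmt2 (0.779), Ak4 (0.758) and Acmsd (0.722). Stress genes high there were Atf3 (0.731), Nfkbiz (0.725), Rnd3 (0.724) and Osgin1 (0.72).

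The list levels of AKI 4 were high for the citric acid cycle (0.893), growth factors and repair (0.823), the circadian clock (0.822, 9.16 against 7.72 to 7.97), thick limb and distal transport (0.81) and glycolysis (0.77). They were also high for collecting duct transport (0.752), lactate and pyruvate (0.739), the respiratory chain (0.728) and the adrenal gland (0.717, 4.68 against 4.48 to 4.54). They were low for tubular injury markers (0.714, 8.40 against 9.15 to 9.44) and for haem, iron and NRF2 genes (0.715).

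In VHL-KO/AKI 5 the low values were those of Cldn2 (0.974, 10.45 against 10.80 to 10.81), Apoa4 (0.772), Kcnj10 (0.738), Cd8a (0.727) and the collecting duct transport list (0.737). In VHL-KO/AKI 3, Th (0.825) and Hadha (0.809) and the fatty acid oxidation list (0.736) were high, and the erythroid gene Alas2 (0.896, 7.25 against 8.02 to 8.11) was low. P4ha1 was low in AKI 2 (0.902, 8.57 against 8.90 to 8.94) and the podocyte gene Ptpro was high in AKI 1 (0.717).

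The test of the difference between injured and uninjured kidneys called Hmox1 (-3.286) and Myc (-2.019), both at an adjusted p of 0.0466 by limma. It called 0 genes when any 1 of Control 1, 2 or 3, AKI 1, 3 or 5, or VHL-KO/AKI 1, 2 or 4 was left out. The interaction cannot be told apart from the sex-linked differences between injured and uninjured arrays.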

How the results depend on the processing

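The injured difference of Vhl kept its direction and its call under all alternatives run. Calls made with all arrays were 495 genes higher, 279 lower and 2 for the interaction. They were 1687, 1181 and 885 with array weights, 2027 (10.2% of all genes), 1468 (7.36%) and 1947 without AKI 4 and VHL-KO/AKI 5, 182 and 41 with the 10 injured arrays only, and 1074 and 529 with the injured arrays other than AKI 4. The interaction called 1 gene after quantile scaling. With 1 array left out, the counts ranged from 175 to 1442 higher, 54 to 942 lower and 0 to 620 for the interaction, and the cause was not tested. Of the 112 named genes that were called, 57 stayed called whichever injured array was left out.

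Same-numbered AKI and VHL-KO/AKI arrays did not deviate together (correlations -0.067, -0.044, -0.198, -0.381 and 0.173). These correlations show no pairing of the mice by number, but they cannot exclude one. A fit with a replicate block called 433 higher, 277 lower and 1 for the interaction, and Vhl differed by -0.666 in it (adjusted p = 0.000971, limma).

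Differences that turned sign were not called with all arrays. With array weights Havcr1 was -0.257, Fgb -0.201, Cd4 0.007 and Kdm3a 0.004. With the injured arrays other than AKI 4 they were Havcr1 -0.448, Fgb -0.307, Kdm3a 0.113, Xist 0.043 and Slc2a3 0.028. Without AKI 4 and VHL-KO/AKI 5, Havcr1 was -0.544, Fgb -0.738, Xist 0.052 and Got1 0.027. With 1 array left out, Havcr1 ranged from -0.448 to 0.51, Fgb from -0.307 to 0.916, Xist from -0.186 to 0.043, Slc2a3 from -0.578 to 0.028 and Kdm3a from -0.148 to 0.113. The cause was not tested.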

Other observations

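A few gene groups outside the main pathways are given as values. Their counts are read against all genes, of which 2.48% rose and 1.4% fell, and 7.23% and 4.72% without AKI 4. Klf5, a growth-related transcription factor gene named from its values, lay at 8.52, 8.67, 8.62, 8.23 and 8.60 in AKI and at 7.50, 7.84, 7.30, 7.98 and 7.89 in VHL-KO/AKI, a fall of 0.82 (adjusted p = 0.00583, limma). All knockout arrays were lower, and the uninjured group means were 7.01 in Control and 6.97 in VHL-KO. Of 21 genes of MYC and ribosome biogenesis 1 rose, Mxi1, and 1 fell, Nop58, a nucleolar protein gene (by 0.57, adjusted p = 0.0468). Of 26 fibrosis and matrix genes 1 fell, Ccn1, and without AKI 4, 2 rose and 5 fell. Of 31 proteasome genes 1 rose, Psme1, a subunit of the proteasome activator (by 0.38, adjusted p = 0.0263), with no overlap between the groups. The call of Nop58 ended when any 1 of 7 of the 10 injured arrays was left out, and that of Psme1 with any of 5.

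Of 33 genes of lipid droplets and cholesterol 2 rose, Apoa4 and Apoa1, and without AKI 4, 7 rose. Plin2, which coats lipid droplets, lay at 12.46, 12.72, 12.52, 11.14 and 12.53 in AKI and at 10.53, 11.47, 11.98, 11.95 and 12.66 in VHL-KO/AKI (difference -0.56, adjusted p = 0.451, and -0.84 without AKI 4, adjusted p = 0.112). Of 16 circadian clock genes 1 rose and 1 fell. Per3 rose by 0.60 (adjusted p = 0.0418), a call lost after each of the 3 scalings and without any of 6 of the injured arrays, and Arntl fell by 0.76, a call lost after cyclic loess scaling and without any of 6 of those arrays. Without AKI 4, 6 of the 16 rose and 3 fell. Times of day of the tissue collection were not used here. Epo differed by -1.05 (adjusted p = 0.514) through AKI 4 and by -0.01 without it (adjusted p = 0.978).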
